A study of Mus musculus with 2 samples.

Results

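A set of 8 genes of beta cell electrical activity and hormone release was followed in RNA sequencing counts from mouse pancreatic islets. They were taken by name from a table of 44713 genes and were the sulfonylurea receptor gene Abcc8, the potassium channel genes Kcnj11 and Kcnk16, the calcium channel gene Cacna1d, the SNARE genes Snap25, Stx1a and Vamp2, and the collectrin gene Tmem27. These 8 members were chosen by function and selected on the measured db/db over db/m ratios of these same libraries, so their counts, levels and ratios are a description and carry no test. The islets came from C57BL/6 mice of 2 groups with 1 library each, a db/db library labelled Lepr-/- (no functional leptin receptor, a model of obesity and type 2 diabetes) and a db/m library labelled wild type. Age, sex and the number of animals behind a library were not given in the sources used here. Sequencing in triplicate is stated for the study, and whether a library analysed here is a single replicate or a pool is not stated. Collagenase digestion and a density gradient had yielded the islets, and libraries were made from total RNA depleted of ribosomal RNA. The comparison asked how the islet transcriptome of diabetic mice differs from that of controls, and since each group has a single library here, differences have no replicate check.

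In a beta cell, glucose metabolism closes potassium channels that sense ATP, the membrane depolarises, voltage-gated calcium channels open, and calcium triggers the fusion of insulin granules with the plasma membrane. Kir6.2 (Kcnj11) forms the pore of the ATP-sensitive channel and SUR1 (Abcc8) its regulatory subunit, which sulfonylurea drugs bind. TALK-1 (Kcnk16) is a 2-pore-domain potassium channel of islet cells that shapes the membrane potential, and Cav1.3 (Cacna1d) is an L-type calcium channel. The SNARE proteins SNAP-25 and syntaxin 1A on the plasma membrane and VAMP2 on the granule zip together to drive fusion. Collectrin (Tmem27) is a membrane glycoprotein of beta cells and kidney tubules that has been linked to SNARE complexes and that beta cells shed after cleavage by BACE2.

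The libraries held 18233695 counts (db/db) and 16271129 counts (db/m). Levels are CPM, counts divided by the library size after TMM scaling, on which 1 count stood for 0.0516 CPM and 0.0653 CPM. The label islet cells was only partly borne out by markers, since 32 acinar genes took 67.3% of the db/db and 68.2% of the db/m counts, whereas 7 islet hormone genes took 0.193% and 0.147%. Fewer cells of a type and less RNA per cell cannot be told apart in such bulk libraries. Ratios are db/db over db/m with a 95% interval that covers counting error only, because 1 library per group gives no replicate error. Any PCR copies of a molecule counted as reads would make this interval too narrow. A gene was called where the ratio was at least 2-fold, the interval excluded 1 and the mean unscaled level was at least 1 CPM.

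Promoter sequence is shown for the called members whose start site was in the RefSeq table (GRCm38.p6), because these 3 genes had the largest differences among the members, 2 upward and 1 downward. Each run is the 250 bases before the transcription start, 5′ to 3′ on the gene's strand, and capitals mark matches to the motifs named after it. Tmem27 (listed as Cltrn) is on the plus strand at chrX:164089937-164090186, Kcnk16 on the minus strand at chr14:20269270-20269519, and Stx1a on the plus strand at chr5:135023232-135023481.
Tmem27: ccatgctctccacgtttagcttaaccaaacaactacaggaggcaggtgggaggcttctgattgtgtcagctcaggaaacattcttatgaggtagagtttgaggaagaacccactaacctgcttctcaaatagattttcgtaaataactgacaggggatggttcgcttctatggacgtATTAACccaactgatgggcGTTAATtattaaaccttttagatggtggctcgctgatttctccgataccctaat
Kcnk16: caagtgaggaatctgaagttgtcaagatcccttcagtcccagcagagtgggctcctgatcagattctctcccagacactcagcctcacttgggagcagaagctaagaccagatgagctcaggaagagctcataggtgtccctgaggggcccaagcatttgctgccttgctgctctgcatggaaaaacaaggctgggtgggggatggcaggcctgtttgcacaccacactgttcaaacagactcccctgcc
Stx1a: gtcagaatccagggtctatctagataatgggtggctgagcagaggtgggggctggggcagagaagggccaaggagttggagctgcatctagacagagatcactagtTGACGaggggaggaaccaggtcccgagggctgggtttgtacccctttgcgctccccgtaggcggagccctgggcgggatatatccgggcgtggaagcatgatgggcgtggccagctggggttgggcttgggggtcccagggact

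The motifs were searched on both strands in 32851 promoter windows of the same length. GTTAAT, a half-site of the homeodomain type, stood at positions -73 and -54 of the Tmem27 promoter, counted back from the start. At least 1 match to GTTAAT was present in 6.43% of all windows and 2 or more in 0.441%. The full palindrome, GTTAAT joined by any 1 base to its mirror ATTAAC, had no exact match in the windows of the members. In the Tmem27 window the bases from -54, GTTAATtattaaa, differ from it only in the last base. TGACG, the core of the cAMP response element TGACGTCA, stood at position -144 of the Stx1a promoter and in 17.8% of all windows. No match to these motifs, to the E-box CACGTG or to TATAAA was found in the Kcnk16 window. The second Tmem27 start site given by RefSeq had no match either. A match or its lack describes letters in this window and shows no binding.

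All 8 members had counts in both libraries and a mean of at least 1 CPM. Kcnk16 reached that mean only through the db/db library (unscaled 3.67 against 0.492 CPM), and Stx1a stood at 0.987 unscaled CPM in the db/db library. Of the 8, 3 were called higher in the db/db library (Tmem27, Kcnk16 and Snap25), against 3.83% of the 10300 genes compared, and 1 was called lower (Stx1a), against 4.04%. In both directions 7.87% of all compared genes were called. Since the members were chosen with these ratios known, nothing is read from the shares. The other 4 were neither, and the median log2 ratio was 0.75 for the members and 0.02 for all compared genes. Snap25 at 2.05-fold was the member just inside the 2-fold limit and Vamp2 at 1.98-fold the one just outside.

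**Figure D1:**
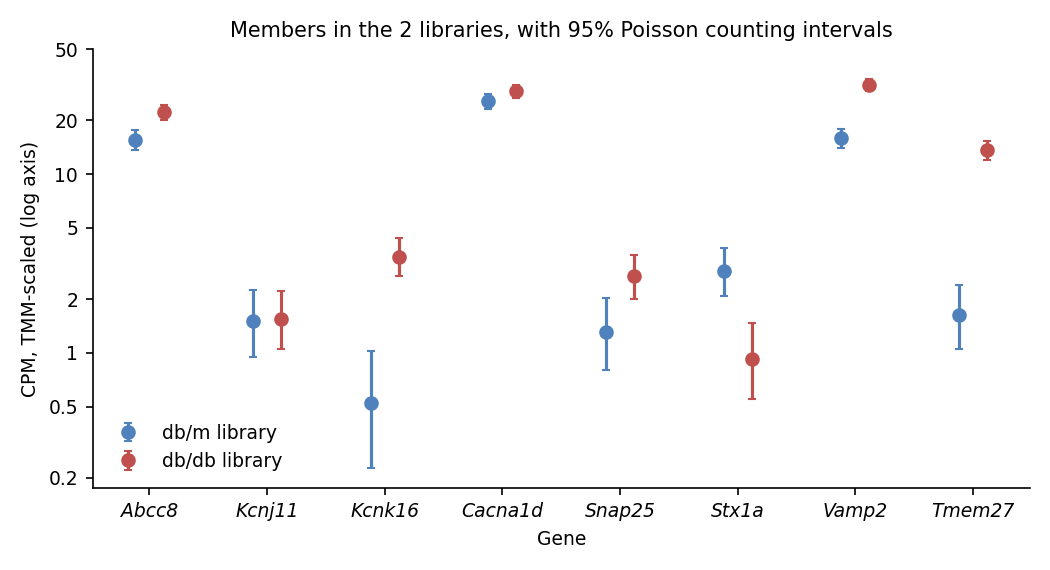
TMM-scaled CPM (log axis) of each member in the db/m (blue) and db/db (red) library, with bars for the 95% exact Poisson interval. The libraries lie farthest apart for Tmem27 (1.63 and 13.6 CPM) and Kcnk16 (0.522 and 3.46 CPM), Stx1a is lower in the db/db library, and Kcnj11 is nearly level.

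The 2 subunit genes of the ATP-sensitive potassium channel are neighbours on chromosome 7, with Kcnj11 at 46097123 to 46100952 and Abcc8 at 46104523 to 46180039, 3570 bases apart. Abcc8 had 429 db/db counts and 237 db/m counts, which is 22.1 CPM (95% Poisson interval 20.1 to 24.3) and 15.5 CPM (13.6 to 17.6). The Poisson intervals of the libraries did not overlap, and the ratio was 1.43 (1.22 to 1.68), under the 2-fold limit. Kcnj11 had 30 and 23 counts, or 1.55 CPM (1.04 to 2.21) and 1.5 CPM (0.952 to 2.25). Its ratio was 1.03 (0.579 to 1.86), so at this depth no difference of Kcnj11 was detectable. Within a library there were 6.99 Kcnj11 counts per 100 Abcc8 counts in db/db and 9.70 in db/m. The odds ratio of Kcnj11 against Abcc8 was 0.721 with an exact interval of 0.395 to 1.33, so the counts neither separate the subunits' ratios nor show them to be alike. An annotated long non-coding RNA overlaps Abcc8, and whether counting used strand was not given in the sources used here.

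Kcnk16 (chromosome 14, 20261375 to 20269269) had 67 db/db counts and 8 db/m counts. These counts correspond to 3.46 CPM (2.68 to 4.39) and 0.522 CPM (0.226 to 1.03). The intervals were far apart, and the ratio was 6.62 (3.17 to 16.0), a ratio that 37 of the 10300 compared genes, itself included, reached or passed. Against Kcnj11, which does not depend on the scaling, the odds ratio of Kcnk16 was 6.32 (2.40 to 18.3). Against Abcc8 it was 4.62 (2.17 to 11.3). Against Kcnk3, another 2-pore-domain channel gene with only 14 and 5 counts, it was 2.95 with an interval that holds 1 (0.658 to 12.2). Since Kcnk16 was selected on its ratio, these odds ratios describe the counts and test nothing. Kcnk1 and Kcnk6 of that family stood at 1.16-fold (1.01 to 1.34) and 1.03-fold (0.81 to 1.30).

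Cacna1d (chromosome 14, 30039941 to 30491156) had 563 counts in the db/db and 392 in the db/m library. Its levels were 29.1 CPM (26.7 to 31.6) and 25.6 CPM (23.1 to 28.3), and these intervals overlapped. The ratio was 1.14 with counting bounds of 0.996 to 1.29, which exclude a 2-fold difference of these libraries by counting error alone. With total counts in place of TMM the ratio was 1.28 and its interval, 1.12 to 1.46, no longer held 1. Cacna1c, the other main L-type channel gene of beta cells, had 19 and 14 counts, and the odds ratio of Cacna1d against it was 1.06 (0.485 to 2.26). RefSeq places Chdh and Dcp1a across the ends of Cacna1d. Chdh had 18 and 7 counts and Dcp1a 13 and 11, few beside those of Cacna1d.

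Of the 3 SNARE genes, Vamp2 and Snap25 had nearly the same ratio, above 1, and Stx1a lay below 1. Vamp2 (chromosome 11, 69088528 to 69092381) had 610 counts in the db/db and 243 in the db/m library, or 31.5 CPM (29.0 to 34.1) against 15.9 CPM (13.9 to 18.0). The db/db level was clearly above the db/m level by counting error, at a ratio of 1.98 (1.71 to 2.31). With total counts the ratio of Vamp2 was 2.24 (1.93 to 2.61), which would be called, against 5.48% of compared genes called higher on that scale. Snap25 (chromosome 2, 136713439 to 136782428) had 52 and 20 counts, or 2.68 CPM (2.0 to 3.52) and 1.31 CPM (0.798 to 2.02). The Poisson intervals of Snap25 overlapped at their edges, and its ratio was 2.05 (1.21 to 3.63). Stx1a (chromosome 5, 135023482 to 135051100) was the member lower in the db/db library, with 18 counts against 44. Its levels of 0.929 CPM (0.551 to 1.47) and 2.87 CPM (2.09 to 3.86) did not overlap, and it was 3.09-fold lower (1.75 to 5.69).

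Within a library the SNARE genes can be set against each other without any scaling. For every 100 Stx1a counts there were 289 Snap25 counts in db/db and 45.5 in db/m, an odds ratio of 6.26 (2.81 to 14.5). Vamp2 against Stx1a gave 6.12 (3.39 to 11.5). Snap25 against Vamp2 gave 1.04 (0.593 to 1.87), so these 2 genes were not separated by their counts.

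The members were also set against paralogs of the same SNARE families. The odds ratio was 2.34 for Snap25 against Snap23 (1.31 to 4.31), 3.21 for Vamp2 against Vamp3 (2.47 to 4.16) and 1.98 for Vamp2 against Vamp8 (1.62 to 2.41). For Stx1a it was 0.426 against Stx3 (0.22 to 0.798) and 0.342 against Stx4a (0.151 to 0.752). The members were selected on their ratios and the paralogs picked with values known, so these odds ratios are a description and support no difference between member and paralog. Snap25 made up 7.91% of the counts of 4 SNAP genes in the db/db library (exact binomial interval 5.97% to 10.2%) and 3.82% in the db/m library (2.35% to 5.83%). Stx1a made up 8.37% of the counts of syntaxins 1 to 4 in db/db (5.04% to 12.9%) and 19.0% in db/m (14.2% to 24.7%). Vamp2 made up 38.0% of the counts of 6 VAMP genes in db/db (35.6% to 40.5%) and 22.1% in db/m (19.7% to 24.6%). The shares are of counts not divided by transcript length and compare libraries, not genes. Vamp8, which acinar zymogen granules also carry, was level with a ratio of 1.0 (0.883 to 1.14), and Vamp3 stood at 0.618 (0.501 to 0.761). Snap23 was at 0.876 (0.711 to 1.08) and Stx4a at 0.954 (0.566 to 1.62).

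**Figure D2:**
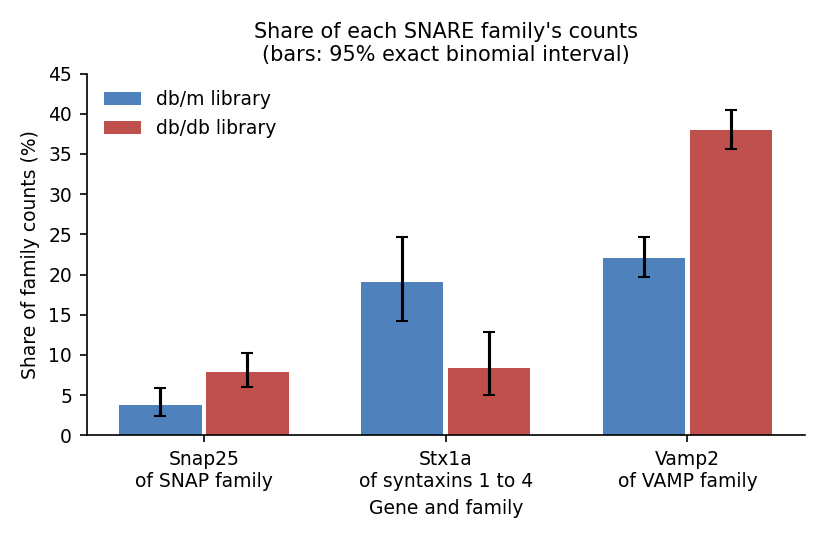
Share of its family's counts (%) held by Snap25, Stx1a and Vamp2 in the db/m (blue) and db/db (red) library, with 95% exact binomial intervals. The share of Vamp2 is 22.1% in db/m and 38.0% in db/db, and that of Stx1a 19.0% and 8.37%.

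Tmem27 (chromosome X, 164090187 to 164118859) had 263 db/db counts and 25 db/m counts. The levels were 13.6 CPM (12.0 to 15.3) and 1.63 CPM (1.06 to 2.41), far apart. The ratio of 8.31 (5.51 to 13.1) was the largest of the 8 members, and 28 of the 10300 compared genes, itself included, reached or passed it. Y-linked genes such as Ddx3y (300 and 174 counts) and Uty (282 and 205) were read in both libraries, and Xist had 0 and 8 counts. The 316 compared genes of the X chromosome had a median log2 ratio of 0.01, with 4.11% called higher, and the autosomal genes 0.03, with 3.74%. Bace2, whose product cleaves collectrin, was at 0.925 (0.597 to 1.44). Hnf4a, a transcription factor gene on the collectrin list, was 2.38-fold lower (2.08 to 2.73). Of 10 markers listed for the kidney tubule, 6 were at 0 in both libraries, among them Slc34a1 and Cubn. The sum of the list was 57 and 40 counts, of which Umod, a gene of the thick ascending limb rather than the proximal tubule, gave 52 and 33.

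Other genes of stimulus-secretion coupling were counted from 7 lists, and most were neither. Without the members, 2 of 11 compared potassium channel genes were called higher and 0 lower, with a median log2 ratio of 0.11, beside 3.83% called higher and 4.04% lower over all compared genes. These were Kcnh6 (3.0-fold, 1.68 to 5.71) and Kcnh2 (2.52-fold, 1.41 to 4.73), voltage-gated channels of the ERG type that help to end the beta cell action potential. Of 3 other compared calcium channel genes 0 were called, with a median of 0.18, and Cacna2d1, an auxiliary subunit, stood at 1.80-fold (1.27 to 2.59). Of 17 other ion transport genes 2 were higher and 0 lower (median 0.11), the sodium channel gene Scn3a with 38 against 2 counts (ratio 15.0, 3.88 to 128) and the sodium-calcium exchanger gene Slc8a1 (2.56-fold, 1.72 to 3.91).

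Of 10 compared SNARE genes other than the members, 0 were called in either direction, and their median log2 ratio was -0.13. Among 33 compared regulators of exocytosis 2 were higher and 1 lower (median 0.09). That is 9.09% called, near the 7.87% called in either direction over all compared genes. Doc2b, a calcium sensor that binds SNARE proteins, had 66 and 8 counts (6.52-fold, 3.12 to 15.7), the active-zone scaffold gene Bsn 47 and 10 (3.71-fold, 1.85 to 8.24), and Rims3 was 2.36-fold lower (1.68 to 3.36). Of 19 compared glucose sensing genes 2 were called (10.5%, also near 7.87%), with a median of 0.09. Adra2a, the adrenergic receptor that restrains insulin release, was higher (2.05-fold, 1.11 to 4.01). The glucose transporter gene Slc2a2 was lower (35 against 129 counts). With so few calls, nothing is read from these shares. The 4 partners of collectrin that could be compared had a median of -0.42, with Hnf4a called lower. Of the genes named here as called higher, Kcnh2, Kcnh6, Scn3a, Doc2b, Bsn and Adra2a were under 1 unscaled CPM in the db/m library and passed the filter only through the db/db library. The list medians moved with the scaling, and the median of all 13 compared SNARE genes was -0.07 with TMM and 0.11 with total counts.

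**Figure D3:**
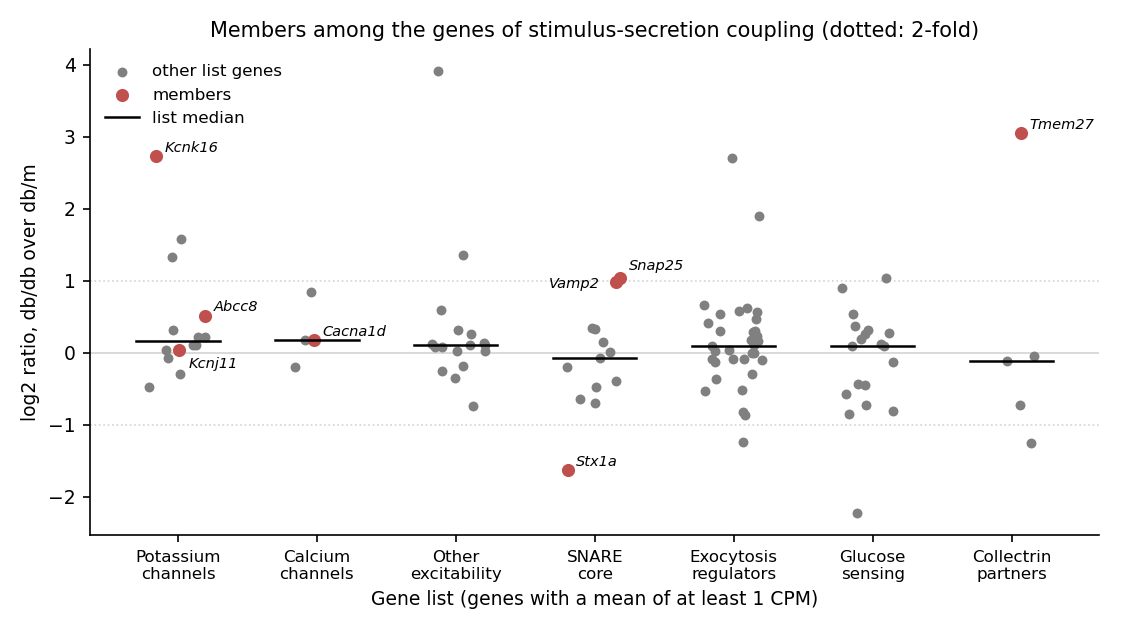
log2 ratio of db/db over db/m for each compared gene of the 7 lists (grey), with members in red, list medians as black lines and the 2-fold limits dotted. Tmem27, Kcnk16, Snap25 and Stx1a lie outside the 2-fold limits, Snap25 only just, while list medians lie between -0.11 and 0.18.

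Among 59 non-member genes of these lists with a mean of at least 5 CPM, those nearest in log2 ratio were Rab3d (0.54) and Syt13 (0.47) for Abcc8 (0.52), Kcnk6 and Cplx2 for Kcnj11, and Stxbp5 and Mdh1 for Cacna1d. Likeness here is the absolute difference of a single log2 ratio from 2 libraries. Rimbp2 (0.62) and Napg (0.57) were nearest to Vamp2 and Snap25, 0.37 and 0.42 away at best. For Kcnk16 and Tmem27 the same 2 genes were nearest, but differed by at least 2.11 and 2.44. For Stx1a the nearest were Hnf4a and Ucp2, 0.38 and 0.78 away. Genes under 5 CPM were not candidates, although Kcnj11, Kcnk16, Snap25 and Stx1a lie under that level themselves. Among the genes left out, Doc2b had a log2 ratio of 2.70 beside 2.73 for Kcnk16. Adra2a, also left out, had 1.04, the same as Snap25.

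Summed over the 8 members there were 2032 db/db and 992 db/m counts, a ratio of 1.62 (1.5 to 1.75). Abcc8, Cacna1d and Vamp2, all called neither, gave most of both sums, so this ratio says little about the called members. The sum over 18 pan-endocrine genes (granins, convertases and islet transcription factors) was 7377 and 3160 counts, a ratio of 1.84 (1.77 to 1.92), and 7 of the 16 compared were called higher and 1 lower. Alpha cell markers were called higher in 5 of 8 cases with a summed ratio of 1.90 (1.83 to 1.98). Delta and PP cell markers were called higher in 5 of 9, with 1 lower and a summed ratio of 2.19 (2.03 to 2.37). Single genes went well beyond these sums. Of the 7 hormone genes 4 were called higher, namely Sst (8.79-fold), Ppy (6.44-fold), Pyy (5.72-fold) and Gcg (3.99-fold). Ins1 was called lower (2.11-fold) and 2 were neither, beside 3.83% called higher and 4.04% lower over all compared genes. Beta cell markers were called lower in 7 of 15 cases and higher in 0, with a summed ratio of 1.0 (0.99 to 1.02) that Ins2 dominates. Acinar and duct markers had summed ratios of 0.875 (0.874 to 0.875) and 0.685 (0.661 to 0.709). Of the markers called higher, Gc, Gria3, Etv1, Isl1 and Rbp4 were under 1 unscaled CPM in the db/m library. They passed the filter only through the db/db library. Of those called lower, Mafa, Papss2 and Neurod1 were under 1 unscaled CPM in the db/db library and passed only through the db/m library. The part of the cell type markers in the members' ratios was not tested.

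Because neurons also use the SNARE genes, nerve markers were set beside them. The 17 neuron markers summed to 183 and 61 counts, of which synaptophysin (Syp), also an endocrine gene, gave 116 and 53. The other 16, none of which reached a mean of 1 CPM, summed to 67 and 8 counts, a ratio of 6.62 (3.17 to 16.0). The defining genes Dbh, Slc18a3, Chat and Rbfox3 were at 0 in both libraries, whereas Th had 29 and 1 counts, Tubb3 16 and 3, Gap43 5 and 0, and Vip 5 and 0. Stmn2 and Elavl3 each had 0 and 1 counts. Most of the 67 db/db counts came from Th and Tubb3. Schwann cell markers summed to 277 and 282 counts, with S100b and Cdh19 at 0 in both. The part of nerve RNA in the ratios of Snap25, Vamp2 and Stx1a was not tested.

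**Figure D4:**
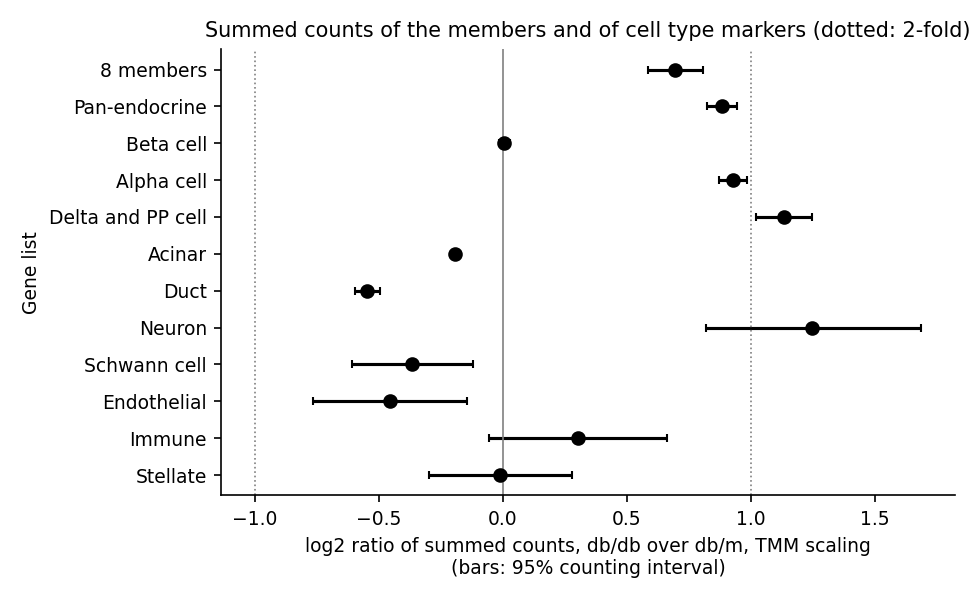
log2 ratio of db/db over db/m for the summed counts of the 8 members and of each cell type's markers, with 95% counting intervals. The members (1.62-fold) lie near the pan-endocrine (1.84-fold) and alpha cell (1.90-fold) sums and above the beta cell sum (1.0-fold). Abcc8, Cacna1d and Vamp2 dominate the members' sum.

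Read per count of the pan-endocrine genes, a scale that lowers every log2 ratio by 0.88, the members split differently. Tmem27 stayed higher in the db/db library at 4.51-fold (2.99 to 7.09) and Kcnk16 at 3.59-fold (1.72 to 8.65), where 0.796% of compared genes were called higher. Vamp2 and Snap25 came to 1.08 (0.925 to 1.25) and 1.11 (0.654 to 1.97), with intervals that hold 1. Abcc8 turned to the other side at 0.775 (0.66 to 0.913), as did Cacna1d at 0.615 (0.54 to 0.702), and Kcnj11 stood at 0.559 (0.314 to 1.01). Stx1a was at 0.175 (0.0953 to 0.31), where 36.6% of compared genes were called lower. Per count of Ins2 the ratios stayed close to those above, with Tmem27 at 7.91 (5.24 to 12.5), Kcnk16 at 6.30 (3.02 to 15.2), Vamp2 at 1.89 (1.63 to 2.20) and Stx1a at 0.308 (0.167 to 0.544). Snap25 at 1.96 (1.15 to 3.46) then missed the 2-fold limit. Because a scaling shifts every log2 ratio by a constant, the members far from 0 keep their side: Tmem27, Kcnk16, Snap25, Vamp2 and Stx1a had the same direction under all 6 scalings tried.

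**Figure D5:**
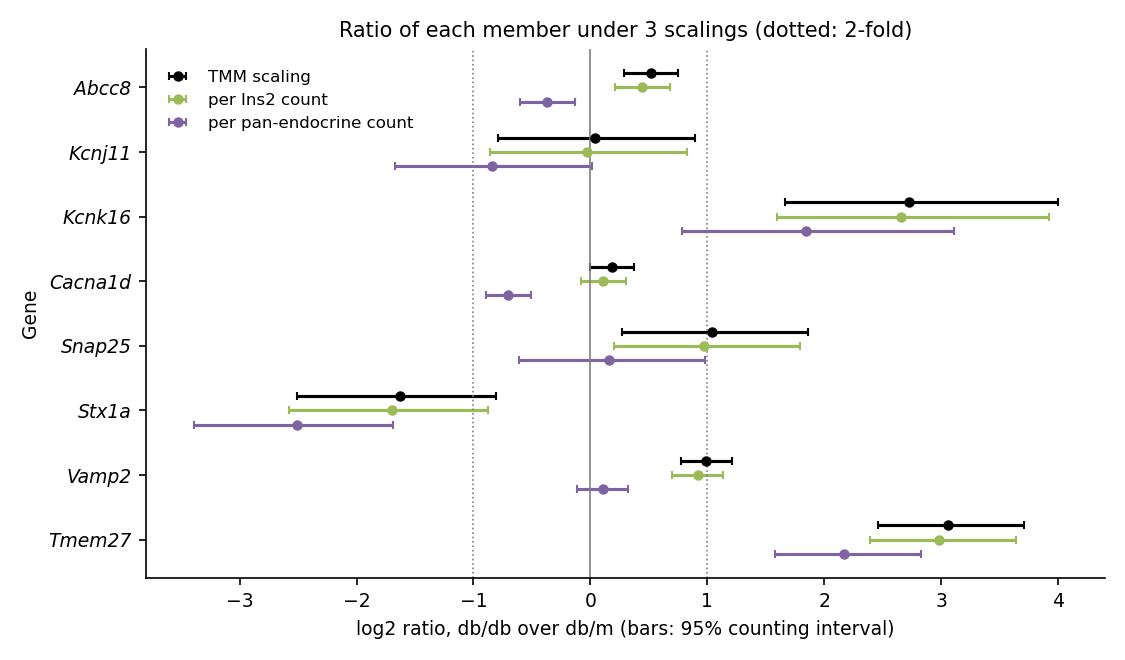
log2 ratio of db/db over db/m for each member with TMM scaling (black), per Ins2 count (green) and per pan-endocrine count (purple), with 95% counting intervals and dotted 2-fold limits. Tmem27, Kcnk16, Snap25, Vamp2 and Stx1a keep their side of 0 on all 3 scales, Snap25 and Vamp2 with intervals that hold 0 per pan-endocrine count, while Abcc8 and Cacna1d lie above 0 with TMM and below 0 per pan-endocrine count.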

How the data were processed

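Islet RNA was analysed in 1 library per group, assigned by title and genotype label. The authors deposited whole-number read counts per gene. Per the submitters' processing notes, HISAT2 2.0.4 and the builds mm10 and GRCm38 were used. The counting program, its strand setting and the handling of reads matching several places were not given in the sources used here.

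Counts were scaled with TMM (edgeR 4.0.16, R 4.3.3). Ratios have exact Clopper-Pearson 95% counting intervals, member levels exact Poisson intervals, and pairs of genes conditional odds ratios (Python 3.11.15, scipy 1.17.1). The comparison covered genes whose mean unscaled level reached 1 CPM. For the ratio, a library at 0 takes a floor of 3 counts, or the other library's count where smaller, and at least 1. Intervals use the counts without this floor. No p-value was computed. Totals of 18233695 and 16271129 counts set the precision. On simulated counts for db/db against db/m (44713 genes, 200 changed), 100% of genes raised 8-fold or 3-fold and 0% of those raised 1.5-fold passed the rule, as did 34 unchanged genes. These counts were drawn with Poisson error alone and scaled by total counts. Differences between animals were not simulated, so the 34 do not give the number of false calls in the real libraries. At each fold, 87.5% to 97.5% of the changed genes had an interval covering it.

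The members, 22 gene lists and the calling rule were chosen with earlier results of these data known. Named list genes are the called ones, further ones of large log2 ratio with at least 5 CPM, those nearest in ratio to a member, and markers of highest count or at 0. Cacna2d1, Kcnk3, Cacna1c, Bace2, Tubb3, Gap43, Vip, Stmn2, Elavl3, the hormone genes, the SNARE paralogs and a member's neighbours were named after their values were seen. Levels per transcript length were not computed. A few list genes were counted but are not reported here by name. Stxbp3 and Adgre1 were matched by older symbols. The alternatives were 5 other scalings (DESeq2 1.42.0 size factors among them), other filters and fold limits, stricter intervals, and lists without the members. Figures were drawn with matplotlib 3.10.9.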

Additional observations from a re-analysis of the deposited data

How the results depend on the processing

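Scaled to pan-endocrine genes, the log2 ratios were -0.37 for Abcc8, -0.84 for Kcnj11, -0.70 for Cacna1d, 2.17 for Tmem27, 0.16 for Snap25, -2.51 for Stx1a and 0.10 for Vamp2, since that scale shifts every ratio by -0.88. Total counts shifted them by 0.18, DESeq2 size factors by -0.01, totals leaving out hormone and acinar genes by 0.14 and Ins2 by -0.07, and each member stayed within its counting interval. With a mean of at least 10 CPM, 0 members were called higher and 0 lower, because the called members fall below it. Only Abcc8, Cacna1d and Vamp2 reached that level. With a fold limit of 4, an interval beyond 2-fold or the Bonferroni level, 2 members (Kcnk16 and Tmem27) were called higher and 0 lower. At 1.5-fold, 4 were higher and 1 lower. Over all 10300 compared genes, 395 higher and 416 lower calls became 564 and 277 with total counts and 889 and 914 at 1.5-fold. They became 78 and 76 at 4-fold, 99 and 137 beyond 2-fold, and 138 and 213 at the Bonferroni level. With other sets of genes compared, there were 745 and 814 of 14829 without a filter, and 36 and 95 of 4148 at 10 CPM. Kcnk16 rests on 8 counts, Stx1a on 18 and Snap25 on 20 in the lower library. No paired analysis was possible because each group has 1 library and no test was made.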
